A study of Homo sapiens with 14 samples.

Results

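The adrenomedullin system was examined in the transcriptomes of a breast cancer cell line and 6 gene-edited lines made from it. Its members were taken by gene symbol: the ligand genes ADM and ADM2, the receptor gene CALCRL, and the receptor activity-modifying proteins RAMP1, RAMP2 and RAMP3. Of these 6 genes, 4 had a row among the 19410 genes of the table, namely ADM, ADM2, CALCRL and RAMP1. RAMP2 and RAMP3 were not analysed here. A filter on low values, described below, was passed by ADM, ADM2 and RAMP1, which is 3 of the 6, and CALCRL did not pass it.

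Poly(A) RNA was sequenced by the authors from untreated cultures of MDA-MB-231, an established human triple-negative breast cancer line, in 7 groups of 2 libraries each. The parental group is the line before editing. The other groups are SAP30-KO1 and SAP30-KO2, edited in SAP30, a subunit of the SIN3 corepressor complex; SIN3A+SIN3B-DKO1 and SIN3A+SIN3B-DKO2, edited in both scaffold genes of that complex; and MLL1-KO1 and MLL1-KO2, edited in the gene for the histone H3 lysine methyltransferase MLL1. Edited lines were made with CRISPR/Cas9 and puromycin and are mixtures of several single-cell knockout clones, checked for loss of protein by immunoblot. Per the labels, cells of all groups were kept in DMEM with 10% serum. The parental libraries stand for unedited cells, so a difference that all 6 edited lines share cannot be told apart from an effect of editing, selection and cloning. Every edited line was set against the same 2 parental libraries, and the 6 comparisons are therefore not independent of each other. Whether the 2 libraries of a group came from separate cultures is not stated, and p-values measure only the spread between these libraries.

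Values are transcripts per 1000000 (TPM), a level scaled by gene length and by library. The value of a single read could be worked out for each gene, and on this basis libraries held from 18415036 to 23162682 reads assigned to genes. SAP30 itself was at 2.75 to 4.96 TPM in the SAP30-KO libraries and at 66.1 TPM or more elsewhere. MLL, the gene of MLL1, was at 15.8 to 27.7 TPM in the MLL1-KO libraries and at 49.0 and 56.7 TPM in parental cells, but also at 23 to 35.4 TPM in the SAP30-KO libraries. SIN3B was at 43.5 to 50.2 TPM in the libraries labelled SIN3A+SIN3B-DKO against 75.1 and 77.4 TPM in parental cells, whereas SIN3A was at 55.1 to 62.5 TPM there against 43.1 and 45.4 TPM, so the RNA of SIN3A does not check the label of these libraries. The mesenchymal markers VIM and CD44 were at 267 TPM or more, ESR1 and PGR at no more than 0.191 TPM, CDH1 at no more than 1.25 TPM and ERBB2 at 21.9 to 42.8 TPM. The parental libraries stood apart in these markers: the sum of ESR1, PGR and CDH1 was 1.25 and 1.35 TPM there and 0 to 0.303 TPM in the edited libraries, and ERBB2 was at 41.5 and 42.8 TPM there and at 21.9 to 29.0 TPM in the edited libraries. Of 6 endothelial markers, CDH5, VWF and TEK were at or below 0.252 TPM in all libraries. PECAM1 was at 1.55 to 3.97 TPM, KDR at 0.37 to 6.44 TPM and TIE1 at 0 to 2.06 TPM. The sum of the 6 was 11.2 to 11.8 TPM in MLL1-KO2 and 3.36 to 6.68 TPM in the other groups. The sum of 4 leukocyte markers was 0.696 to 4.15 TPM, with CD14 alone at 0.679 to 3.98 TPM.

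Adrenomedullin and adrenomedullin 2, which is also called intermedin, are secreted peptides of the calcitonin family. They widen blood vessels and promote the growth of blood and lymphatic vessels. Their receptor is CALCRL, a G protein-coupled receptor that reaches the cell surface with a RAMP partner and signals mainly through Gs and cyclic AMP. The partner sets the ligand preference: RAMP1 gives the receptor for calcitonin gene-related peptide, RAMP2 and RAMP3 give adrenomedullin receptors, and adrenomedullin 2 acts on all of these with little selectivity. RAMP1 also pairs with CALCR, the calcitonin receptor. In tumors, ADM is known as a gene induced by hypoxia, and ADM2 as a gene induced by endoplasmic reticulum stress through the transcription factor ATF4.

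Because the ligand paralogs differed in their response, the bases around their start sites are shown. In each, 250 bases before and 50 after the start are given as RefSeq holds them on GRCh38.p14, 5′ to 3′ on the gene's strand, with capitals for the GC box GGGCGG on either strand and the TATA box TATAAA.
ADM2 (chr22:50481293-50481592, plus strand): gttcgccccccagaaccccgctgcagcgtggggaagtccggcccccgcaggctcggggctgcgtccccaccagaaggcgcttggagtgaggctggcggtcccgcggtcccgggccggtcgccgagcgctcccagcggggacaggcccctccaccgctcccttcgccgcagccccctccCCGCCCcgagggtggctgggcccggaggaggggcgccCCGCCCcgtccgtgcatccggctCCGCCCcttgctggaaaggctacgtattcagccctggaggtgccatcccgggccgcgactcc
ADM (chr11:10304823-10305122, plus strand): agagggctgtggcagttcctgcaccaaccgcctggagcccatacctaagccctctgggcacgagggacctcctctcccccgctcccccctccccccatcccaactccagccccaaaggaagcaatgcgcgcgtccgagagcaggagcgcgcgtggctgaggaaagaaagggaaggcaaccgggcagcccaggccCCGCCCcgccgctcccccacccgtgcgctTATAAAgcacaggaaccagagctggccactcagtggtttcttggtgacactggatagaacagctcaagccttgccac
The 2 promoters are of different make, and whether this bears on the response of the genes was not tested. ADM2 has 76.7% G and C and 3 GC boxes, and TATAAA was not found in its window. ADM has 65.0% G and C, a TATA box that begins 27 bases before the start, and 1 GC box. Among 35097 RefSeq promoters of this length the median was 58.7% G and C, 11.5% held TATAAA and 44.9% held GGGCGG on either strand. Entries matched for ADM, ADM2, CALCRL and RAMP3, 4 of the 6 genes, but not for RAMP1 and RAMP2.

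The composite letters TGATGNAA, to which dimers of ATF4 and C/EBP proteins are known to bind, were also searched on both strands. They stood in 3.6% of the 35097 promoters, and in none of the ADM and ADM2 windows. Within 1000 bases of the start sites on GRCh37, where 18.8% of 15397 genes held them, they were found for CALCRL and for ADM2 but not for ADM. The match of ADM2 lies 334 bases after the start, on the opposite strand, in an exon of 2 of its 2 annotated transcripts. Both are shown because ATF4 targets are described below, with capitals for the match.
ADM2 (match at chr22:50920306-50920313, shown on the plus strand): gccgccctgggTTGCATCAgcctcctctgc
CALCRL (match at chr2:188313047-188313054, shown on the minus strand): cggggtcagagTGATGTAAcaggaagctct
A match of letters describes the window and does not show that a factor binds there.

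ADM2, the low ligand of the pair, changed more than ADM and RAMP1, the other members that passed the filter. Its RNA was at 3.81 and 3.68 TPM in the parental libraries, from 117 and 110 reads. In SAP30-KO1 it was at 0.618 and 0.724 TPM, and in SAP30-KO2 at 0.588 and 0.943 TPM. The libraries labelled SIN3A+SIN3B-DKO1 gave 0.744 and 0.896 TPM, and those labelled SIN3A+SIN3B-DKO2 gave 0.778 and 0.341 TPM. In MLL1-KO1 it was at 0.718 and 0.932 TPM, and in MLL1-KO2 at 0.518 and 0.684 TPM. All 12 edited libraries were thus below both parental libraries, and the parental mean was 3.97 times the highest edited library and 11 times the lowest. The share of all genes that separate in this way is not given here, so the separation is not shown to be particular to ADM2. In RNA from whole cultures of mixed clones, fewer cells with ADM2 and less ADM2 per cell cannot be told apart.

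**Figure D1:**
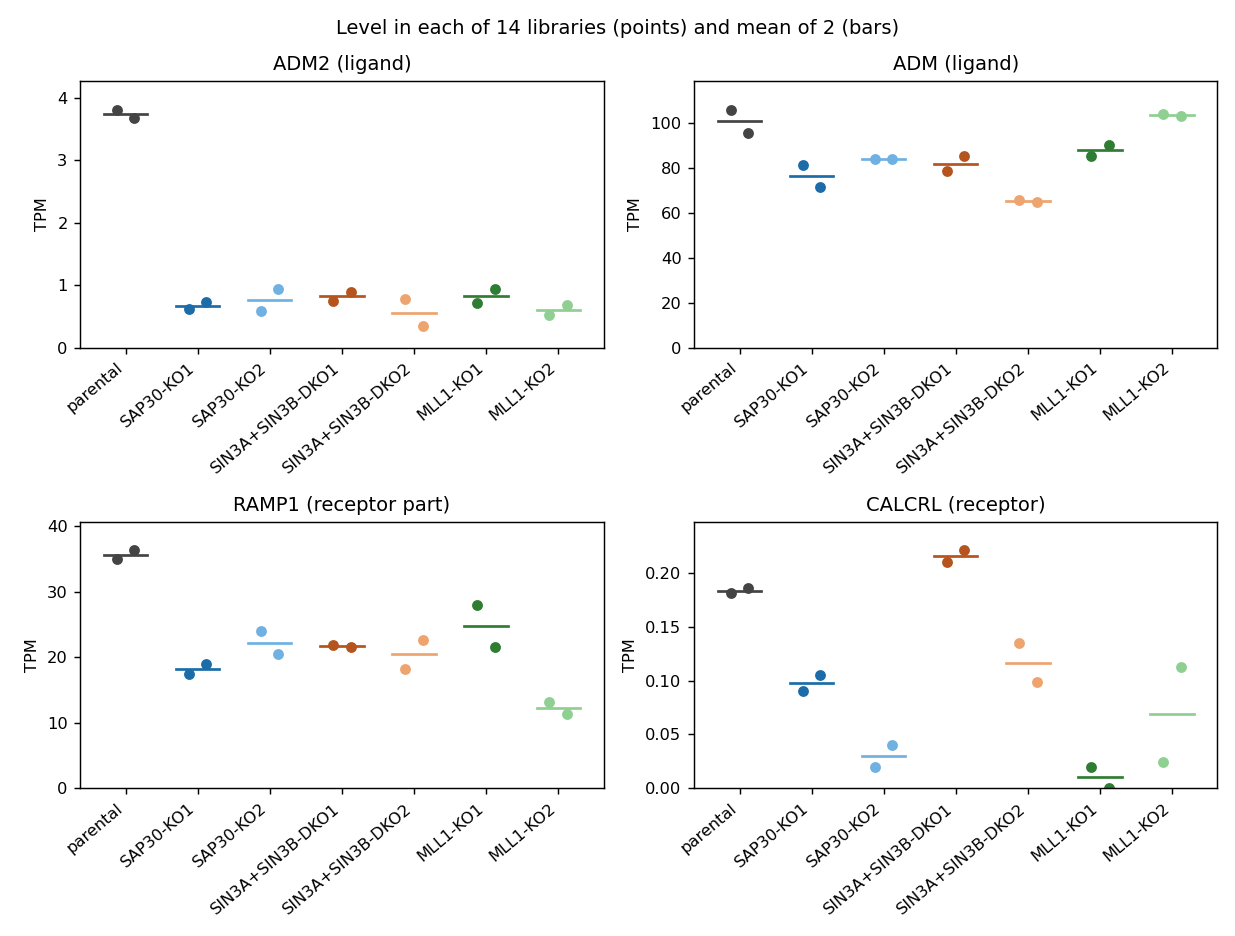
Levels of the 4 genes with a row, in TPM on the vertical axis, in 14 libraries; points are libraries and bars the mean of 2, and each panel has its own scale from 0. ADM2 and RAMP1 sit below both parental libraries in all 12 edited libraries, ADM stays between 64.7 and 106 TPM, and CALCRL never exceeds 0.221 TPM.

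The fit was made with limma on log2(TPM + 0.5) over the 13540 genes that reached 1 TPM in 2 or more libraries. A gene was called at a Benjamini-Hochberg adjusted p under 0.05 over these genes and a change of at least 1.5-fold. ADM2 was called lower than parental in 6 of 6 lines. It passed the filter on low values through the parental libraries alone, so its entry into the test depended on its parental level. Without that filter it was also called in 6 of 6 lines (largest adjusted p from limma, 0.00015). Shares over all genes are given per line, and the share called in several lines at once is not given here. Of all tested genes, 7.86% and 8.12% were called lower in the 2 SAP30-KO lines, 8.66% and 7.56% in the SIN3A+SIN3B-DKO lines, and 16.3% and 14.9% in the MLL1-KO lines, in the order of their numbers. The study had chosen ADM2 from these libraries, so its fall here is not independent evidence of its direction. The part of the marker differences between parental and edited libraries in this result was not tested. Apart from these libraries, the study reported lower ADM2 by RT-qPCR in MDA-MB-231 cells edited in SAP30, in SIN3A and SIN3B, or in MLL1. It also reported that wild-type SAP30 restored ADM2 in SAP30-KO1 cells, whereas a SAP30 mutant impaired in SIN3 binding did not. ADM2 was reported lower in SUM159 cells edited in SAP30 too. Ectopic SAP30 raised ADM2 in parental cells but not in MLL1-KO1 cells. By ChIP-qPCR the study reported SAP30, SIN3A, SIN3B and MLL1 at ADM2. There SIN3A, SIN3B and MLL1 were reduced in SAP30-KO1 cells, and MLL1 also in cells edited in SIN3A and SIN3B. On the fitted scale the change of ADM2 was −1.86 and −1.76 in the first and second SAP30-KO line, −1.69 and −2.03 in the lines labelled SIN3A+SIN3B-DKO, and −1.68 and −1.95 in the MLL1-KO lines, each with an SE of 0.22. The largest of the 6 adjusted p-values from limma was 8.9e-05. Added to low levels, the pseudocount of 0.5 shrinks these changes: as a plain ratio of mean TPM, parental cells held from 4.54 times the level of MLL1-KO1 to 6.69 times that of SIN3A+SIN3B-DKO2.

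The 6 edited lines could not be put in order by ADM2. Mean levels ran from 0.56 ± 0.31 TPM (SD, n = 2) in SIN3A+SIN3B-DKO2 through 0.601 ± 0.117 in MLL1-KO2, 0.671 ± 0.0751 in SAP30-KO1, 0.765 ± 0.251 in SAP30-KO2 and 0.82 ± 0.107 in SIN3A+SIN3B-DKO1 to 0.825 ± 0.152 in MLL1-KO1, against 3.74 ± 0.0936 in parental cells. Edited lines next to each other in this order lay within their spread. The difference of MLL1-KO minus SAP30-KO was −0.01 on the log2 scale, with a 95% interval of −0.36 to 0.34. MLL1-KO minus SIN3A+SIN3B-DKO was 0.04 (−0.31 to 0.39), and SAP30-KO minus SIN3A+SIN3B-DKO was 0.05 (−0.30 to 0.40). Within genotypes, SAP30-KO1 minus SAP30-KO2 was −0.10 (−0.59 to 0.39), SIN3A+SIN3B-DKO1 minus SIN3A+SIN3B-DKO2 was 0.35 (−0.15 to 0.84), and MLL1-KO1 minus MLL1-KO2 was 0.27 (−0.23 to 0.76). The 6 adjusted p-values from limma were 0.33 or more, and ADM2 was called in none of these comparisons. Over all genes, 13.5% were called lower and 6.34% higher in MLL1-KO than in SAP30-KO, 13% and 6.91% in MLL1-KO than in SIN3A+SIN3B-DKO, and 3.25% and 4.22% in SAP30-KO than in SIN3A+SIN3B-DKO. Within genotypes the shares were 0.0739% lower and 0.0739% higher for SAP30-KO1 against SAP30-KO2, 1.01% and 1.22% for the SIN3A+SIN3B-DKO lines, and 7.15% and 3.27% for MLL1-KO1 against MLL1-KO2. Depth limits this comparison, since edited libraries held only 12 to 33 reads of ADM2, and the lowest, SIN3A+SIN3B-DKO2 replicate 2 with 12 reads, has a Poisson 95% interval of 6.2 to 21.0 reads for counting error alone.

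ADM, the abundant paralog, changed little. It was at 106 and 95.6 TPM in parental cells, 81.3 and 71.3 TPM in SAP30-KO1, and 84.0 TPM in both libraries of SAP30-KO2. The libraries labelled SIN3A+SIN3B-DKO1 gave 78.6 and 85.2 TPM and those labelled SIN3A+SIN3B-DKO2 gave 65.9 and 64.7 TPM. MLL1-KO1 gave 85.2 and 90.4 TPM, and MLL1-KO2 gave 104 and 103 TPM. Thus 10 of 12 edited libraries were below both parental libraries, and both libraries of MLL1-KO2 lay between them. Each value rests on 773 or more reads.

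The SE of the ADM changes was 0.07 on the log2 scale, so small differences could be seen. ADM fell by 0.62 in SIN3A+SIN3B-DKO2 (adjusted p = 2.3e-05 by limma), its 1 called change. It was lower by less than 1.5-fold, with an adjusted p under the threshold, in both SAP30-KO lines (−0.40 and −0.26), SIN3A+SIN3B-DKO1 (−0.30) and MLL1-KO1 (−0.20). In MLL1-KO2 the change was 0.04 (95% interval −0.10 to 0.19, adjusted p = 0.59). Between genotypes, ADM was higher in MLL1-KO than in SAP30-KO by 0.25 (adjusted p = 0.00065) and than in SIN3A+SIN3B-DKO by 0.38 (adjusted p = 2.8e-05), both less than 1.5-fold. Without parental replicate 1 the change in SIN3A+SIN3B-DKO2 is −0.55 and is no longer called. The value in MLL1-KO1 also misses the adjusted p threshold in other fits, with 0.20 by median ratios, 0.11 by quantiles, 0.066 by voom, 0.29 with neighbours subtracted and 0.06 with the compared libraries alone.

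**Figure D2:**
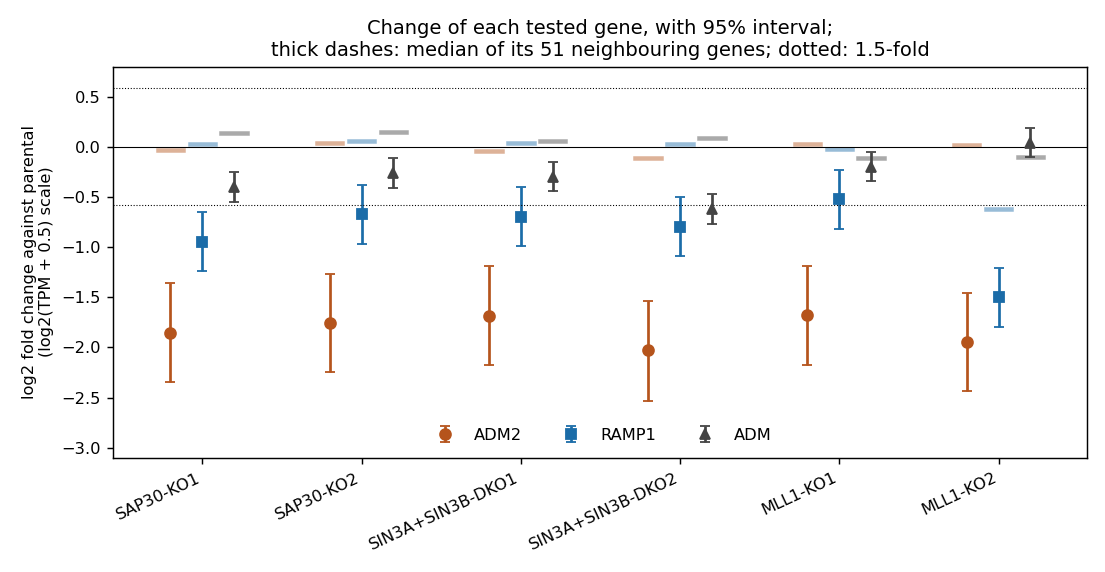
Change of each tested gene against parental cells on the log2(TPM + 0.5) scale, for 6 edited lines; symbols are limma estimates with 95% intervals, thick dashes the median change of the 51 genes around each gene on its chromosome, and dotted lines 1.5-fold. ADM2 lies between −2.03 and −1.68 in all 6 lines, ADM between −0.62 and 0.04, and RAMP1 is lowest in MLL1-KO2 at −1.50, where its neighbours are at −0.62.

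Set against each other in each library, the paralogs moved apart. Parental cells held 27.8 and 26.0 TPM of ADM for each TPM of ADM2, whereas the edited libraries held 84.7 to 202. As log2(ADM2 TPM + 0.5) minus log2(ADM TPM + 0.5), the ratio was −4.63 and −4.52 in parental libraries and −6.69 to −5.70 in edited libraries, with the lowest values in MLL1-KO2. The means differed by −1.54 (exact two-sided permutation test over 12 against 2 libraries, p = 0.011, the smallest that its 91 splits allow). The 2 libraries of a line share their cells and the 12 pool 6 lines, so this p covers the spread between libraries only. Since the study had chosen ADM2 from these same libraries, the p is not independent evidence that the paralogs differ.

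**Figure D3:**
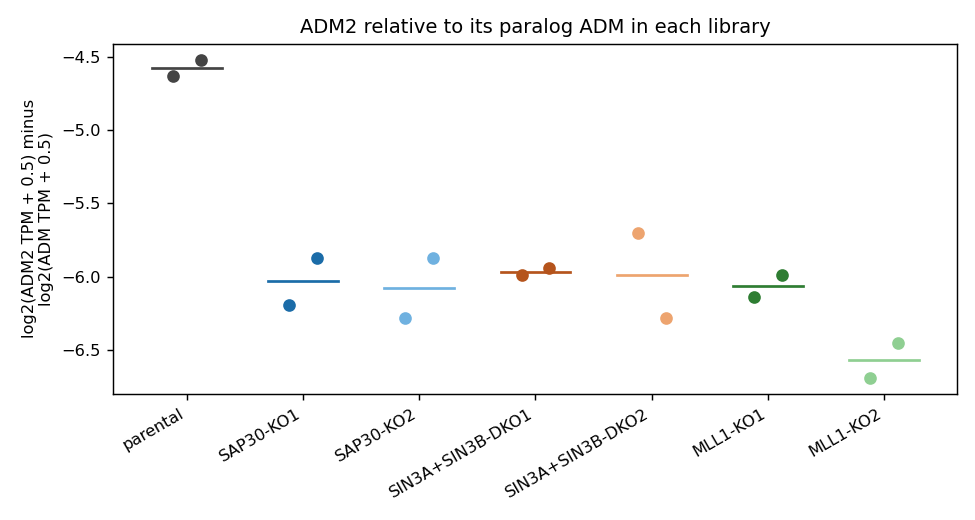
Log2 ratio of ADM2 to ADM (each TPM + 0.5) on the vertical axis in 14 libraries of 7 groups; points are libraries and bars the mean of 2. Parental libraries sit at −4.63 and −4.52 and all 12 edited libraries at −5.70 or below.

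None of the tested genes beside the ligands was called lower. On GRCh37 with GENCODE 44, ADM2 lies at chr22:50919972-50924869 on the plus strand and overlaps SBF1, a regulator of myotubularin phosphatases, on the other strand. Exons of SBF1 cover 131 of the 4289 exon bases of ADM2, all in a transcript with a retained intron. SBF1 was at 39.2 to 55.6 TPM, with changes of −0.25 to 0.19, and was called in no line. Whether reads were counted by strand is not stated, so reads in the shared bases cannot be told apart. PPP6R2, a phosphatase subunit 36452 bases before ADM2, changed by −0.24 to 0.28 and was called in no line, and MIOX, 343 bases after it, was at or below 0.164 TPM. The median change of the 51 genes around ADM2 was −0.11 to 0.04.

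ADM lies at chr11:10326620-10328944 on the plus strand, between SBF2, 195 bases before it on the other strand, and AMPD3, 915 bases after it on the same strand. SBF2, a paralog of SBF1, changed by −0.28 to −0.03 and was called in no line. AMPD3, an AMP deaminase, rose from 3.91 and 3.96 TPM in parental cells to 8.75 to 9.38 TPM in the SAP30-KO lines and 6.24 and 7.07 TPM in SIN3A+SIN3B-DKO1. MLL1-KO1 gave 11.9 and 12.4 TPM and MLL1-KO2 gave 21.5 and 23.2 TPM, also called, but its change of 0.47 in SIN3A+SIN3B-DKO2 was under 1.5-fold. Directly beside AMPD3, ADM rose in no line.

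RAMP1, the partner that turns CALCRL into the receptor for calcitonin gene-related peptide, also fell. It was at 34.9 and 36.3 TPM in parental cells, 17.4 and 19.0 TPM in SAP30-KO1, and 24.0 and 20.4 TPM in SAP30-KO2. The libraries labelled SIN3A+SIN3B-DKO1 gave 21.9 and 21.6 TPM, and those labelled SIN3A+SIN3B-DKO2 gave 18.2 and 22.6 TPM. MLL1-KO1 gave 27.9 and 21.6 TPM, and MLL1-KO2 gave 13.2 and 11.3 TPM. All 12 edited libraries were below both parental libraries, and those of MLL1-KO2 were the lowest of all. As for ADM2, the share of all genes that separate in this way is not given here.

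RAMP1 was called lower in 5 of 6 lines, at −0.95 and −0.67 in the SAP30-KO lines, −0.70 and −0.80 in the SIN3A+SIN3B-DKO lines and −1.50 in MLL1-KO2 (log2, SE 0.13; largest adjusted p from limma among these, 0.0015). In MLL1-KO1 the change was −0.52 with an adjusted p of 0.0055 by limma, under 1.5-fold. Without MLL1-KO1 replicate 1 it is −0.70 and is called, and without SAP30-KO2 replicate 2 the change in SAP30-KO2 is −0.56 and is not. The 2 MLL1-KO lines differed from each other, MLL1-KO1 minus MLL1-KO2 being 0.98 (95% interval 0.69 to 1.27, adjusted p = 0.00017 by limma), in a comparison where 3.27% of genes were called in that direction. The other 2 pairs of lines gave −0.27 (−0.57 to 0.02) for SAP30-KO1 minus SAP30-KO2 and 0.10 (−0.19 to 0.39) for SIN3A+SIN3B-DKO1 minus SIN3A+SIN3B-DKO2. Between genotypes, SAP30-KO minus SIN3A+SIN3B-DKO was −0.06 (−0.27 to 0.14), MLL1-KO minus SAP30-KO −0.20 (−0.41 to 0.00) and MLL1-KO minus SIN3A+SIN3B-DKO −0.27 (−0.47 to −0.06), none of them called.

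The chromosome around RAMP1 moved in MLL1-KO2 as well. RAMP1 lies at chr2:238767536-238820748 on the plus strand (GRCh37), and the median of its 51 neighbouring genes was −0.62 in MLL1-KO2 and −0.02 to 0.06 in the other lines. UBE2F, a NEDD8-conjugating enzyme gene 54720 bases after it, was at 17.3 and 16.4 TPM in MLL1-KO2 against 29.6 and 32.6 TPM in parental cells. With the neighbours' median taken off, the change of RAMP1 in MLL1-KO2 was −0.89 and still called, and the difference between the MLL1-KO lines was 0.38 (adjusted p = 0.073 by limma). MLL1-KO2 was also the line with the highest sum of endothelial markers, 11.2 to 11.8 TPM, and their part in the result was not tested. ADM2 was called lower in 6 of 6 lines on the subtracted scale too, at −1.97 to −1.64.

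CALCRL, the receptor of both ligands, was barely detected. It held 8 and 8 reads in parental cells, 4 and 5 in SAP30-KO1, then 1 and 2 in SAP30-KO2. The libraries labelled SIN3A+SIN3B-DKO1 held 11 and 11 reads and those labelled SIN3A+SIN3B-DKO2 held 7 and 5. MLL1-KO1 held 1 and 0 reads and MLL1-KO2 held 1 and 5. The highest level was 0.221 TPM, and the SIN3A+SIN3B-DKO1 libraries, at 0.210 and 0.221 TPM, were the 2 edited libraries above parental cells, which were at 0.181 and 0.186 TPM. Summed over a group, parental cells held 16 reads, with a Poisson 95% interval of 9.1 to 26.0, against 3 (0.6 to 8.8) in SAP30-KO2 and 1 (0.0 to 5.6) in MLL1-KO1. Scaled by library totals, the ratio to parental cells was 0.163 (exact 95% interval 0.0304 to 0.568) in SAP30-KO2 and 0.0571 (0.00136 to 0.368) in MLL1-KO1, and the intervals of the other 4 lines included equality. These intervals cover counting error only. Fitted without the filter on low values, the change was −0.42 in MLL1-KO1 (adjusted p = 0.001), −0.37 in SAP30-KO2 (adjusted p = 0.003) and −0.27 in MLL1-KO2 (adjusted p = 0.012) by limma, and the adjusted p was 0.064 or more in the other 3 lines. At this level the scale allows a fall of at most 1.37-fold, so the 1.5-fold minimum could not be met by a fall of CALCRL. Its neighbours on chromosome 2 were expressed, with FAM171B at 7.93 to 17.6 TPM and TFPI, an inhibitor of coagulation, at 20.8 to 56.6 TPM. Both were called lower in MLL1-KO1 and MLL1-KO2, FAM171B at −0.82 and −1.02 and TFPI at −1.26 and −1.31. In these lines 16.3% and 14.9% of all genes were called lower. In the other lines mean FAM171B was 0.552 to 0.748 of the parental level and mean TFPI 0.768 to 0.944. A link of these changes to CALCRL was not tested.

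CALCR, the other receptor that RAMP1 can join, was low as well. It was at 1.64 and 1.40 TPM in parental cells, and at 0.898 to 1.92 TPM in the SAP30-KO and SIN3A+SIN3B-DKO libraries. In MLL1-KO1 it was at 0.185 and 0.250 TPM and in MLL1-KO2 at 0.148 and 0.314 TPM, a called change of −1.49 and −1.47 (adjusted p = 4e-05 in both, limma), and the difference of MLL1-KO from SAP30-KO was −1.25 and from SIN3A+SIN3B-DKO −1.30. Of the list of 4 further family genes it was the only tested member, since CALCB and IAPP were under the filter and CALCA was not analysed here. Among decoy and accessory receptors, CRCP, a protein that couples CALCRL to signalling, was at 54.9 to 64.8 TPM and called in no line, and the scavenging receptor ACKR3 (CXCR7 in the table) was at or below 0.0588 TPM. A further paralog, ADM5, was looked at after its values were seen: it was at 1.84 to 5.23 TPM and was called higher in MLL1-KO1 only, at 0.59 (adjusted p = 0.028 by limma), where 6.89% of genes were called higher.

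The machinery that makes and clears the peptides was present. PAM, which adds the amide that the mature peptides need, was at 106 to 120 TPM and called in no line; it is named here after its values were seen. FURIN, a prohormone-cleaving protease, rose in both MLL1-KO lines by 1.46 and 1.48, to 94.9 to 104 TPM against 35.6 and 35.8 TPM in parental cells. IDE, insulin-degrading enzyme, fell there (−0.71 and −1.07). In the SAP30-KO and SIN3A+SIN3B-DKO lines none of the 4 tested genes of this list of 7 was called. Of all genes, 7.56% to 8.66% were called lower and 6% to 7.8% higher in those lines, so none of 4 is near these shares. In the MLL1-KO lines 16.3% and 14.9% of all genes were called lower and 6.89% and 10.2% higher.

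Of the genes that switch the receptor off or move it, some rose and others fell. ARRB2, a beta-arrestin, rose in 6 of 6 lines by 1.02 to 1.61, and its paralog ARRB1 fell in 5 lines, with changes of −1.11 to −0.78, the exception being MLL1-KO2, where it was at 0.30. GRK3, a receptor kinase listed as ADRBK2, rose in 5 lines by 0.99 to 1.25 and was at 0.47 in MLL1-KO1. SLC9A3R1, the scaffold NHERF that binds RAMP3, fell in 6 of 6 lines, with changes of −1.04 to −0.85, from 162 and 174 TPM to 79.7 to 94.3 TPM. Over the 10 genes of the list, 2 or 3 were called lower and 1 to 3 higher in each line, where 7.56% to 16.3% of all genes were called lower and 6% to 10.2% higher, and the medians of −0.11 to 0.12 stood near those of all genes, −0.09 to 0.03.

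On the Gs and cyclic AMP route, 22 of 30 genes were tested. GNAS, which encodes the Gs alpha subunit, was at 417 to 555 TPM and called in no line; it too is named after its values were seen. ADCY7, an adenylyl cyclase, fell in 6 of 6 lines, with changes of −1.07 to −0.60. PRKAR1A, a regulatory subunit of protein kinase A, fell in the SAP30-KO and MLL1-KO lines (−0.87 to −0.61) and was at −0.50 and −0.52 in the SIN3A+SIN3B-DKO lines. CREM, a cyclic AMP-responsive transcription factor, rose in 5 lines by 0.60 to 0.71 and was at 0.40 in MLL1-KO1. PDE4B, which breaks down cyclic AMP, rose in SAP30-KO1 (0.72), MLL1-KO1 (1.10) and MLL1-KO2 (0.93) and fell in SIN3A+SIN3B-DKO1 (−0.62). From 1 to 5 of the 22 genes were called lower and 1 to 3 higher in a line, with medians of −0.20 to 0.04. These counts are near the shares over all genes, 7.56% to 16.3% lower and 6% to 10.2% higher, and the medians of all genes were −0.09 to 0.03.

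Genes that ATF4 is known to induce were then set beside ADM2. Of 19 tested genes of a list of 20, none was called lower in the SAP30-KO or SIN3A+SIN3B-DKO lines, where 4 were called higher in each SAP30-KO line, 11 in SIN3A+SIN3B-DKO1 and 5 in SIN3A+SIN3B-DKO2. In MLL1-KO1, 2 were called lower and 3 higher, and in MLL1-KO2, 2 and 4. With 19 genes, 0 to 2 lower calls are near the shares of all genes called lower, 7.56% to 8.66% in the SAP30-KO and SIN3A+SIN3B-DKO lines and 16.3% and 14.9% in the MLL1-KO lines. Over all genes, 7.8% and 7.44% were called higher in the SAP30-KO lines, 7.76% and 6% in the SIN3A+SIN3B-DKO lines, and 6.89% and 10.2% in the MLL1-KO lines. The medians of the list were 0.25 and 0.15 in the SAP30-KO lines, 0.75 and 0.30 in SIN3A+SIN3B-DKO1 and SIN3A+SIN3B-DKO2, and 0.05 and 0.15 in the MLL1-KO lines.

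TRIB3, a pseudokinase of the stress response, rose in 6 of 6 lines by 0.70 to 1.66, from 26.3 and 28 TPM to between 36.5 and 89.1 TPM. CEBPB, a partner of ATF4 on DNA, rose in 5 lines by 0.59 to 0.94 and was at 0.47 in SIN3A+SIN3B-DKO2. SESN2, a sestrin, rose in both SIN3A+SIN3B-DKO lines (0.95 and 0.70) and in MLL1-KO1 (0.69). CTH, which makes cysteine, rose in the SAP30-KO and SIN3A+SIN3B-DKO lines by 0.80 to 1.45 and was at −0.43 and −0.31 in the MLL1-KO lines. ATF4 itself was at 326 to 473 TPM and called in no line, and is named after its values were seen.

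**Figure D4:**
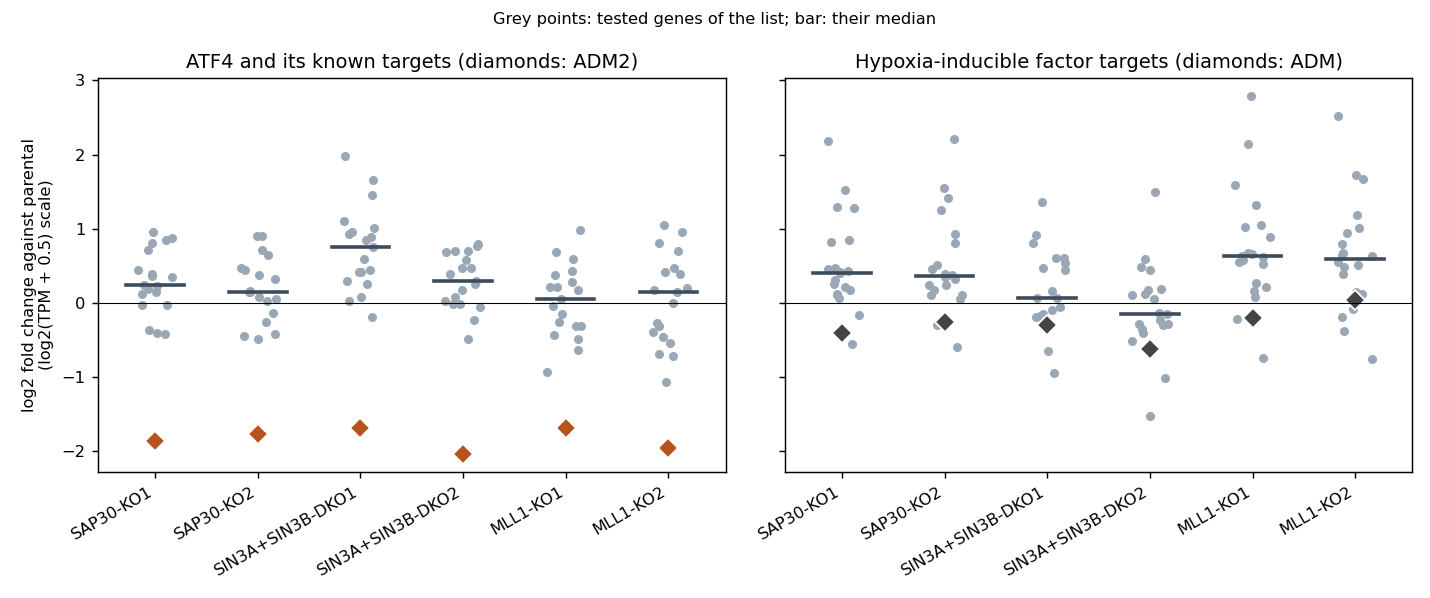
Change against parental cells on the log2(TPM + 0.5) scale in 6 edited lines, for 19 tested genes of the ATF4 list (left) and 20 of the hypoxia list (right); grey points are genes, bars their median, and diamonds ADM2 (left) and ADM (right). ADM2, which the study had chosen from these libraries, is between −2.03 and −1.68. It lies under every gene of the ATF4 list in all 6 lines, and ADM lies under the median of the hypoxia list in all 6 lines.

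Hypoxia-induced genes were set beside ADM in the same way. All 20 genes of this list were tested, and 6 were called higher in each SAP30-KO line, 5 in SIN3A+SIN3B-DKO1, 2 in SIN3A+SIN3B-DKO2, and 11 and 10 in the first and second MLL1-KO line, with 0 to 2 called lower. Over all genes 6% to 10.2% were called higher and 7.56% to 16.3% lower in a line, and the counts in SIN3A+SIN3B-DKO2, 2 in each direction, are near the 6% and 7.56% of that line. The medians were 0.41 and 0.36 in the SAP30-KO lines, 0.07 and −0.14 in the SIN3A+SIN3B-DKO lines, and 0.63 and 0.59 in the MLL1-KO lines, and ADM was lower than the median in each. VEGFA, the vascular growth factor, rose in 6 of 6 lines by 0.59 to 1.72, from 72.1 and 73.4 TPM to between 104 and 248 TPM. STC1, a secreted glycoprotein hormone, rose in 6 of 6 lines by 0.88 to 1.53. NDRG1 rose in 5 lines by 0.91 to 2.52 and was at 0.11 in SIN3A+SIN3B-DKO2. CA9, the carbonic anhydrase of hypoxic tumors, rose in 5 lines by 0.61 to 2.78 and fell by 1.52 in SIN3A+SIN3B-DKO2. It rested on few reads, 26 over both parental libraries and 2 over both libraries of SIN3A+SIN3B-DKO2.

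Other genes whose pattern over the 14 libraries was most like that of ADM2 were sought by the root mean square difference of centred log2 values. The nearest 5 were ARHGEF16 (0.198), MIR769 (0.199), TPTE (0.203), PRSS3P2 (0.215) and AFAP1-AS1 (0.223), where the median over all genes was 0.712. Each was at 1.05 to 1.82 TPM in parental cells, and ARHGEF16, MIR769 and TPTE were listed at 0 in all 12 edited libraries, PRSS3P2 in 10 of 12, and AFAP1-AS1 was at 0.0615 to 0.183 TPM. All 5 passed the filter through the parental libraries alone, as ADM2 did, so low genes seen mainly in parental cells must rank high here. MIR769 rested on 1 read in each parental library and TPTE on 5 and 4. The nearest 5 to ADM were RARA (0.073), CORO7-PAM16 (0.095), VAT1 (0.099), FMNL1 (0.1) and EPHA2 (0.102), against a median of 0.328. These are expressed genes of small change: EPHA2, a receptor tyrosine kinase, was at 229 to 385 TPM, and VAT1 at 207 to 320 TPM.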

How the data were processed

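RNA-Seq of 14 libraries was analysed, with groups and replicate numbers from the submitters' labels. The authors made the libraries with the KAPA mRNA HyperPrep kit. The submitters' processing notes list FastQC 0.11.2, TopHat, featureCounts and hg19. The annotation and the program that made the values are not given in the sources used here. The authors deposited 1 table and named its values RPKM, but their sum is equal in all libraries, so they were taken as deposited TPM, which hide differences in total RNA. The design had been written for RPKM and the same test was kept. Whole reads were recovered from value steps for 100.0% of 18519 genes above 0 (within 0.02 of a whole read), giving 18415036 to 23162682 reads per library. Genes with few reads are imprecise, and Poisson intervals at 95% cover counting error only. A spreadsheet had made dates of 28 gene names.

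limma 3.58.1 (R 4.3.3, eBayes with trend) was fitted to log2(TPM + 0.5) as 7 group means over 14 libraries (7 residual and 3.6 prior degrees of freedom), for 13540 genes at 1 TPM or more in 2 or more libraries. Calls took a Benjamini-Hochberg adjusted p under 0.05 and at least 1.5-fold. Libraries of a group differed by more than counting noise (chi-square per degree of freedom 1.47 to 8.0). Each was counted as a sample, although it is not stated that they came from separate cultures. In a simulated comparison labelled SAP30-KO1 against parental, over 13540 genes, the fit found 196 of 200 changed genes with the correct sign. It also called 5 unchanged genes. The changed genes were drawn only from genes with more reads in parental cells, and every set change was larger than 1.5-fold. The simulation therefore does not show how often changes in genes with few reads, or changes near 1.5-fold, are found. The members and the gene lists were chosen with earlier results of these data known. Named were the members, the targeted genes, up to 4 genes of a list with the largest mean change among those called in both lines of a genotype, the 5 genes most like each ligand, and the genes beside the members. Some genes that this rule or the marker lists took are not reported here. Neighbours were the 51 genes around a gene by position on GRCh37 (GENCODE 44). Motif letters and sequences came from RefSeq promoters and GRCh37. Alternatives were pseudocounts of 0.1 and 1, no filter, quantile and median ratio scaling, other fold minimums, neighbours subtracted, the compared libraries alone, a replicate block and each library left out. Added after the data had been seen were voom (limma) with recovered reads and a fit of the 12018 genes with a position. Python 3.11.15 with scipy 1.17.1 was used for the exact test.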

Additional observations from a re-analysis of the deposited data

Results flagged for a closer look

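RAMP1 differed between the lines of a genotype. MLL1-KO1 minus MLL1-KO2 was 0.98 on the log2(TPM + 0.5) scale (adjusted p = 0.00017 by limma, 3.27% of genes called in that direction), with 27.9 and 21.6 TPM in MLL1-KO1 against 13.2 and 11.3 TPM in MLL1-KO2. The median of the 51 genes around RAMP1 against parental cells was −0.02 in the former and −0.62 in the latter line, and with it subtracted the difference was 0.38 (adjusted p = 0.073 by limma). The number of gene copies in these lines was not tested.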

How the results depend on the processing

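ADM2 was called lower in all 6 lines under all alternatives run, left-out libraries included, from −2.80 by voom to −1.31 by quantile scaling. Its differences between genotypes, none called, changed sign in places: MLL1-KO minus SAP30-KO became 0.06 by median ratios, 0.02 by voom and 0.41 by quantiles (adjusted p = 0.036, limma), SAP30-KO minus SIN3A+SIN3B-DKO became −0.03 with neighbours subtracted and −0.11 by quantiles, and MLL1-KO minus SIN3A+SIN3B-DKO became −0.06 with neighbours subtracted. With neighbours subtracted RAMP1 gave 0.38 between the MLL1-KO lines, 0.16 for MLL1-KO minus SAP30-KO and 0.08 for MLL1-KO minus SIN3A+SIN3B-DKO. With no fold minimum, ADM was also called in SAP30-KO1 (−0.40), SAP30-KO2 (−0.26), SIN3A+SIN3B-DKO1 (−0.30), MLL1-KO1 (−0.20), between the SIN3A+SIN3B-DKO lines (0.32), between the MLL1-KO lines (−0.24) and between genotypes (0.13, 0.25 and 0.38), and RAMP1 in MLL1-KO1 (−0.52) and for MLL1-KO minus SIN3A+SIN3B-DKO (−0.27). With a 2-fold minimum ADM lost SIN3A+SIN3B-DKO2 (−0.62), and RAMP1 lost SAP30-KO1 (−0.95), SAP30-KO2 (−0.67), SIN3A+SIN3B-DKO1 (−0.70), SIN3A+SIN3B-DKO2 (−0.80) and the MLL1-KO lines' difference (0.98). The causes were not tested.

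Leaving out a library leaves a group of 1, whose library is taken to vary like the others. Against parental cells ADM2 ranged from −1.92 to −1.79 (SAP30-KO1), −1.96 to −1.56 (SAP30-KO2), −1.77 to −1.60 (SIN3A+SIN3B-DKO1), −2.33 to −1.73 (SIN3A+SIN3B-DKO2), −1.80 to −1.57 (MLL1-KO1) and −2.06 to −1.84 (MLL1-KO2). Its uncalled differences ran from −0.30 to 0.10 (SAP30-KO1 minus SAP30-KO2), −0.10 to 0.20 (SAP30-KO minus SIN3A+SIN3B-DKO), −0.11 to 0.09 (MLL1-KO minus SAP30-KO) and −0.11 to 0.19 (MLL1-KO minus SIN3A+SIN3B-DKO). ADM ranged from −0.69 to −0.55 in SIN3A+SIN3B-DKO2, not called without parental replicate 1, and from −0.03, without parental replicate 2, to 0.12 in MLL1-KO2. RAMP1 ranged from −0.79 to −0.56 in SAP30-KO2, not called without its replicate 2, from −0.70, called without its replicate 1, to −0.34 in MLL1-KO1, from −0.05 to 0.25 between the SIN3A+SIN3B-DKO lines and from −0.14 to 0.01 for SAP30-KO minus SIN3A+SIN3B-DKO. The ADM2 to ADM difference was −1.59 and −1.49 without a parental library, with an exact p of 0.077, the smallest that 12 against 1 allows.

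Same-numbered libraries did not deviate together (correlations of −0.07 to 0.08 over 21 pairs of groups), and the replicate block changed no call of a member, with ADM2 at −1.86 in SAP30-KO1 under the block. Counts over all genes of 813 to 2210 in a line and direction became 2954 to 5234 with no fold minimum and 230 to 1091 with a 2-fold minimum. With neighbours subtracted, over the 12018 genes with a position, 627 genes were called higher in SAP30-KO1 (944 over the same genes with nothing subtracted, 1056 over all), 651 in SAP30-KO2 (923, 1008) and 496 in SIN3A+SIN3B-DKO2 (705, 813), and 722 were called lower in SAP30-KO2 (969, 1100) and 1347 in MLL1-KO1 (1990, 2210). Quantile scaling turned 2210 lower and 933 higher into 1545 and 1451 in MLL1-KO1 and 2021 and 1387 into 1680 and 1788 in MLL1-KO2, and moved the median of all genes in MLL1-KO1 from −0.09 to 0.04. Depth limits ADM2 in edited cells, at 12 to 33 reads, and CALCRL, at 0 to 11.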
